A study of Mus musculus with 4 samples.

Results

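The Toll-like receptor genes were read in cultured mouse macrophages with and without LPS and with and without CD163. The members are Tlr1, Tlr2, Tlr3, Tlr4, Tlr5, Tlr6, Tlr7, Tlr8, Tlr9 and Tlr13. They were taken as the non-control rows whose gene name in the scanner files equals 1 of these symbols. This gave 10 of 30165 named genes and transcripts, with 14 of 39429 probes. Tlr4 and Tlr8 had 2 probes each, Tlr7 had 3, and the other members had 1.

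The cells were macrophages resident in the peritoneal cavity, from mice of the C57BL/6 background. They were wild type or deficient in CD163, a scavenger receptor for haemoglobin bound to haptoglobin. All cultures were kept for 2 days in RPMI medium with serum. The cultures with LPS, an endotoxin of Gram-negative bacteria that is sensed through TLR4, then received 100 ng/mL for 1 day. Each genotype gave 1 array without LPS and 1 with it, 4 in all, and the CD163-deficient cultures are called deficient cells below. How the CD163 deficiency was made, and whether cells of several mice were pooled, is not given in the sources used here. With 1 array a group no comparison has a replicate check, so no p-value is given.

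A level is the log2 of the background-subtracted spot intensity minus the 75th percentile of the same array, so 0 stands for that percentile. That percentile was an intensity of 910 to 1325 over the arrays. Of 30165 genes, 24691 to 26503 were detected on an array, meaning well above background, and saturated spots numbered 0. The probe of Cd163 lay low on every array, at -5.47 without and -5.01 with LPS in wild type, and -6.0 and -5.48 in deficient cells. It does not separate the genotypes clearly, and the deleted part of the gene is not given. All 8 macrophage markers, such as Adgre1, Csf1r and Cd68, were well above background on all 4 arrays. Of 8 B cell markers read 7 were so, among them Cd79a and Cd79b. Their summed linear level, in units of the 75th percentile, was 1.51 to 1.60 on the 4 arrays, against 596 to 806 for the macrophage list. All 9 markers of large peritoneal macrophages were detected on all arrays. With LPS Gata6 (-1.07 in wild type and -2.08 in deficient cells), F5 (-2.06 and -1.55), Alox15 (-1.25 and -1.11) and Lrg1 (-0.25 and -0.74) were lower. Prg4 (4.69 and 4.56), Timd4 (1.92 and 1.55), Cd163 (0.46 and 0.52), Selp (0.36 and 0.43) and Icam2 (0.10 and 0.68) were higher. The neutrophil list was higher with LPS, at 20.6 and 23.1 against 5.88 and 5.13, and with LPS S100a8 and Camp made up most of that sum. Ly6g was also higher with LPS, by 2.23 (log2) in wild type and 2.05 in deficient cells. The other 5 of the 8 neutrophil markers, S100a9, Ltf, Mpo, Elane and Cxcr2, lay between -0.97 and 0.04 with LPS in wild type and between -0.62 and -0.04 in deficient cells. Of 7 mast cell markers 4 were detected on all 4 arrays, while Ms4a2 and Fcer1a were detected on none. The sum of the T cell list was 4.73 to 5.02. That of the NK cell list was 0.84 without and 0.55 with LPS in wild type, and 0.64 and 0.56 in deficient cells. The eosinophil list summed to 1.47 without and 0.43 with LPS in wild type, and 1.22 and 0.41 in deficient cells. Of 8 dendritic cell markers 7 were detected on all arrays and Xcr1 on none, and their sum was 120 to 201. Siglech, Itgax and Bst2 made up most of that sum. With LPS Bst2 differed by 2.21 in wild type and 2.84 in deficient cells, Siglech by -0.23 and 0.01, and Itgax by -1.01 and -1.01. All 10 mesothelial and fibroblast markers were detected on all arrays, with a sum of 51.3 to 79.7, mostly from Col1a1 and Col1a2. Their median level was lower with LPS, -2.56 against -0.82 in wild type and -2.56 against -1.11 in deficient cells. Upk1b differed with LPS by -2.60 and -2.39, Krt18 by -2.01 and -1.38, Upk3b by -1.78 and -1.31, and Msln by -1.56 and -1.81. Col1a2 (0.51 and -0.23) and Dcn (1.15 and 0.22) were higher with LPS in wild type. In a culture measured as a whole, fewer cells of a type and less RNA per cell cannot be told apart. The part of other cell types in the results below was not tested.

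Toll-like receptors are membrane proteins that bind conserved molecules of microbes with an outer domain of leucine-rich repeats and signal through an inner TIR domain. On the cell surface TLR4 senses LPS together with the proteins of Ly96 and Cd14, TLR5 senses flagellin, and TLR2 senses lipopeptides as a pair with TLR1 or TLR6. In endosomes TLR3 senses double-stranded RNA, TLR7 and TLR8 single-stranded RNA, TLR9 unmethylated CpG DNA, and TLR13, which mice have and humans lack, bacterial ribosomal RNA. All of them except TLR3 can use the adaptor MyD88, while TLR3 and TLR4 use the adaptor TRIF (gene Ticam1). In macrophages these signals lead to NF-kB and interferon regulatory factors.

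LPS went with a changed set of receptor transcripts in both genotypes. Tlr1, Tlr2 and Tlr3 were at least 2-fold higher with LPS and Tlr13 was at least 2-fold lower, in wild type and in deficient cells alike. The receptor for LPS itself, Tlr4, differed by -0.05 (log2) in wild type and by -0.29 in deficient cells on its brightest probe. On their brightest probes Tlr5, Tlr6, Tlr7, Tlr8 and Tlr9 had differences of -0.27 to 0.38 in wild type and -0.13 to 0.68 in deficient cells. So 3 of 10 members were at least 2-fold higher in wild type, where 6.4% of 26681 compared genes were, and 1 of 10 was at least 2-fold lower, where 5.03% were. In deficient cells the same counts stood beside 7.24% higher and 5.5% lower of 26149 genes. At 1.5-fold the members higher and lower numbered 3 and 1 in wild type, beside 13.7% and 12.8% of genes, and 4 and 1 in deficient cells, beside 15.4% and 12.1%, Tlr6 being the one added. The median difference of the members was 0.23 in wild type and 0.24 in deficient cells, against 0.00 and 0.03 for all compared genes. All members were compared, since each had its brightest probe well above background on all 4 arrays.

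**Figure D1:**
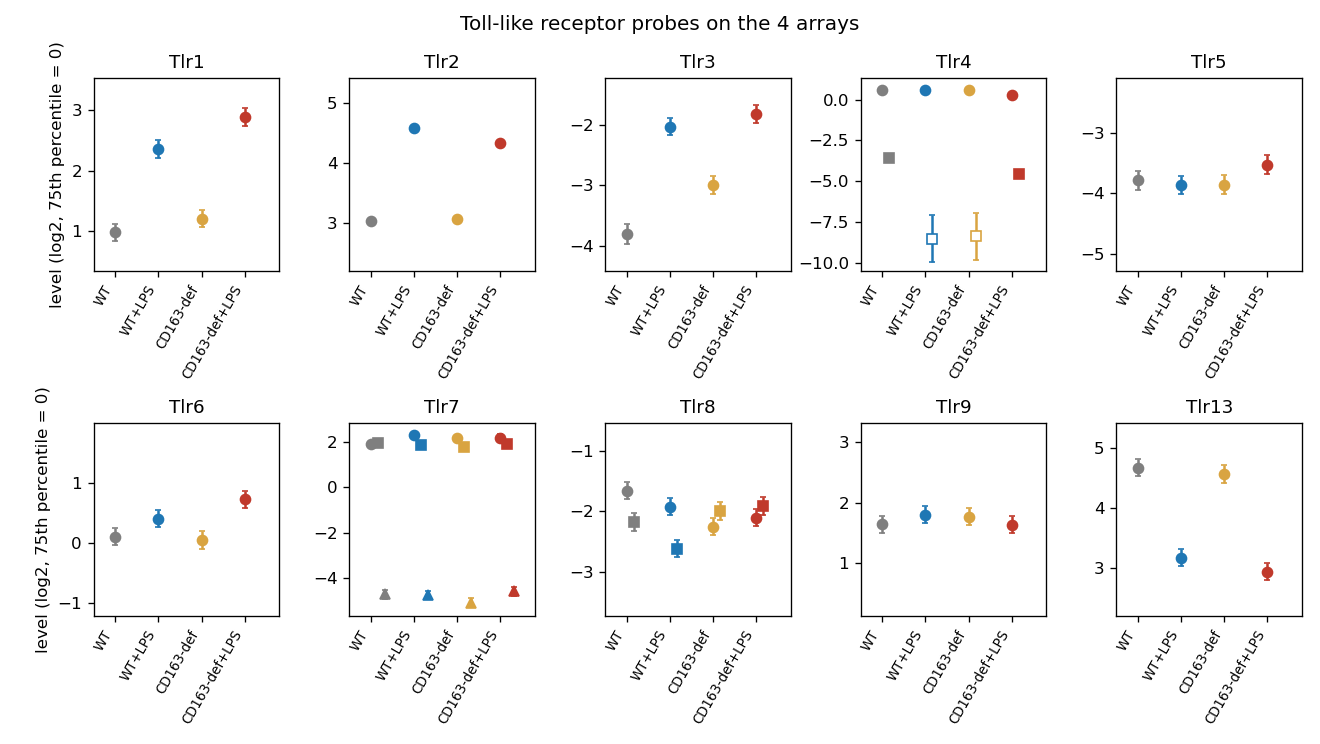
Level (log2, with 0 at the 75th percentile of the array) of each of the 14 probes on the 4 arrays, 1 panel a gene, with its own axis. Circles are the brightest probe of a gene, squares the next and triangles the dimmest of Tlr7, bars are the scanner's error, and open symbols are not well above background. Tlr1, Tlr2 and Tlr3 are highest on the 2 arrays with LPS and Tlr13 is lowest there.

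Among the lipopeptide receptors, Tlr2 is the shared partner and was measured with 10 spots of its probe (chr3:83640344-83640403, mouse build mm9, as all probe positions here). Its wild-type level was 3.03 without LPS and 4.58 with it, and its level in deficient cells was 3.07 without LPS and 4.34 with it. Between the 8 to 10 spots used on an array the SD was 0.07 to 0.12. Before scaling, the spots without LPS ran from an intensity of 6716 to 8228 in wild type and from 9675 to 11842 in deficient cells. With LPS they ran from 28598 to 37446 and from 22830 to 26799, so the spots with and without LPS did not overlap. These spots are copies of 1 probe on 1 array a group and do not show the spread between cultures. The arrays also differ in brightness, with a 75th percentile of 910 without and 1325 with LPS in wild type, and 1258 and 1188 in deficient cells. The log2 difference with LPS was 1.55 in wild type (2.93-fold) and 1.26 in deficient cells (2.4-fold). With quantile normalization the latter was 0.99, just short of 2-fold.

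Tlr1 encodes the partner of TLR2 for triacylated lipopeptides, and its probe lies at chr5:65316115-65316174. Its levels, in the order wild type untreated, wild type treated, deficient untreated and deficient treated, were 0.97, 2.36, 1.20 and 2.89. Both arrays with LPS lay above both arrays without it. The difference with LPS was 1.38 ± 0.20 in wild type (2.61-fold) and 1.69 ± 0.20 in deficient cells (3.23-fold). The ± value here and below is the error that Agilent's software assigns to the spots, carried to the difference. It covers 1 array's reading and not the spread between cultures.

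Tlr6 encodes the other partner, for diacylated lipopeptides, and its probe lies on the same chromosome at chr5:65344365-65344424. Its levels in the same order were 0.11, 0.41, 0.05 and 0.73, and both arrays with LPS were again the highest. The difference with LPS was 0.30 ± 0.20 in wild type and 0.68 ± 0.20 in deficient cells. Both are under 2-fold, and the wild-type difference is close to the scanner's error. The lipopeptide partners thus differed in size on these arrays while sharing the direction.

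Among the endosomal receptors Tlr3 was higher with LPS in both genotypes. Its probe (chr8:46481729-46481788) is dim, with levels of -3.81, -2.02, -2.99 and -1.81 in the same order. The wild-type array without LPS was the lowest of the 4. The difference with LPS was 1.79 ± 0.22 in wild type (3.46-fold) and 1.18 ± 0.21 in deficient cells (2.26-fold). With normexp background correction, which raises and compresses dim signals, these values were 1.06 and 0.90, so the call in deficient cells ended there.

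Tlr13 went the other way. Its probe (chrX:103355773-103355832) had levels of 4.67, 3.17, 4.56 and 2.94, with both arrays without LPS above both arrays with it. The difference was -1.50 ± 0.20 in wild type, 2.82-fold lower with LPS, and -1.62 ± 0.20 in deficient cells, 3.08-fold lower. With this setting and other ways of correcting or scaling the signal it stayed between -1.60 and -1.49 in wild type and between -1.93 and -1.53 in deficient cells.

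Tlr9, the DNA receptor, had the flattest profile of the members, with levels of 1.64, 1.80, 1.77 and 1.63 (chr9:106128979-106129038). Its range over the 4 arrays was 0.17, and each pairwise difference was smaller than the scanner's error of 0.20. B cells also express Tlr9. The B cell markers shared no direction with LPS. Pax5 differed by 0.54 in wild type and 0.71 in deficient cells, but by 0.06 and -0.03 on its other probe. Cr2 differed by -0.22 and -0.27, and by 0.70 and 0.54 on its other probe. The values were -0.16 and 0.39 for Cd79a, 0.15 and 0.05 for Cd79b, and 0.22 and -0.09 for Ms4a1. Those of Blk were -0.48 and 0.06, and those of Vpreb3 0.19 and -0.20. Fcrla was not detected in wild type without LPS. The part of B cells in the levels of Tlr9 was not tested.

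Tlr7 was read by 3 probes that lie within 4068 bases of each other on chromosome X. The brightest (chrX:163743146-163743205) had levels of 1.92, 2.30, 2.17 and 2.21, and the next (chrX:163742863-163742922) had 1.95, 1.86, 1.77 and 1.91. The LPS difference in wild type was 0.38 on the former and -0.09 on the latter, each with an error of 0.20. The probes therefore do not share a sign, although they lie 283 bases apart. The remaining probe was dim, from -5.09 to -4.58, with differences of -0.05 ± 0.27 in wild type and 0.51 ± 0.29 in deficient cells. No probe of Tlr7 reached 2-fold in any comparison.

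Tlr8 was read by 2 probes 2730 bases apart that differed in how they ranked the genotypes. The brightest (chrX:163683356-163683415) had levels of -1.66, -1.92, -2.25 and -2.10, with both wild-type arrays above both deficient arrays. The second (chrX:163680626-163680685) had levels of -2.17, -2.62, -1.99 and -1.91, with both wild-type arrays below. Each probe was lower with LPS in wild type (-0.27 and -0.45) and slightly higher with LPS in deficient cells (0.15 and 0.08), with errors of 0.21. No direction between genotypes can be given for Tlr8. The first 30 of the 60 bases of each probe are shown because the probes disagree.
Tlr8, brightest probe: acagttttactgctggaagacaaccagtta
Tlr8, second probe: tgatgggaagtcacgactctgccatcataa

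Tlr4, which encodes the signalling receptor for the LPS given to the cells, was also read by 2 probes. The brightest (chr4:66503470-66503529) had levels of 0.62, 0.57, 0.60 and 0.31, a range of 0.31, with the deficient array with LPS lowest. Its LPS differences of -0.05 ± 0.20 and -0.29 ± 0.20 are under 1.5 times the scanner's error. The second probe (chr4:66590077-66590136) is assigned to Tlr4 in the array annotation through an Ensembl transcript. It lies 86607 bases from the first, while the RefSeq gene is 19031 bases long in build GRCm38. It was well above background in wild type without LPS (-3.55) and in deficient cells with LPS (-4.59), and not on the other 2 arrays, where it read -8.53 and -8.36. With the undetected arrays set to the lowest detected signal, it was at least 6.95-fold lower with LPS in wild type and at least 3.16-fold higher with LPS in deficient cells. The brightest probe shows no such pattern. The first 30 of the 60 bases of both are given because the values of Tlr4 turn on which one is used.
Tlr4, brightest probe: ttgagaacattttggggaggaagaaaggtc
Tlr4, second probe: gaaattgggtactcatgtttacatgtggac

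Tlr5, the flagellin receptor, had a dim probe (chr1:184906031-184906090) with levels of -3.78, -3.86, -3.85 and -3.52. Its range was 0.34. The LPS difference was -0.07 ± 0.23 in wild type and 0.33 ± 0.22 in deficient cells, so the deficient array with LPS stood slightly above the other three.

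**Figure D2:**
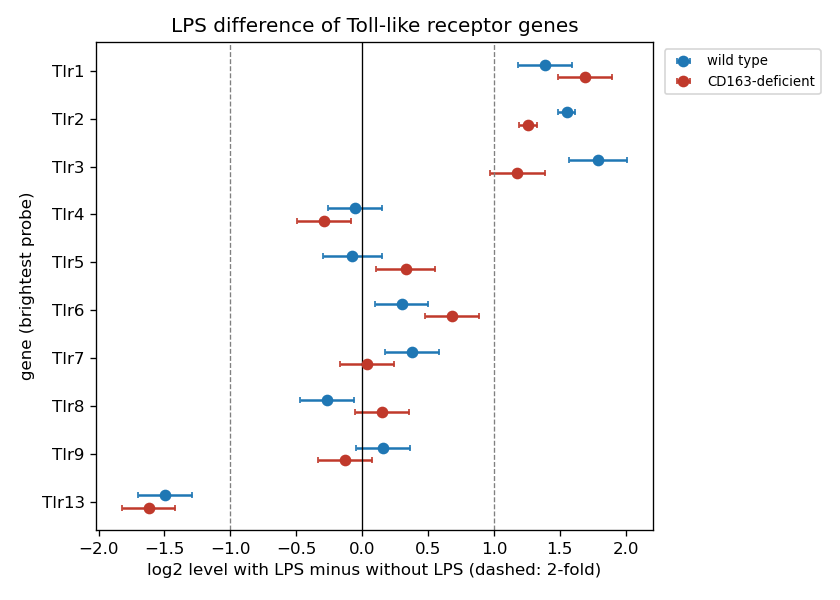
Difference in level with LPS minus without LPS (log2) for the brightest probe of each member, in wild type and in deficient cells. Bars are the scanner's error of the difference and dashed lines mark 2-fold. Tlr1, Tlr2 and Tlr3 lie beyond 1 and Tlr13 beyond -1 in both genotypes.

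The promoters are shown because Tlr1, Tlr2 and Tlr3 were higher together with LPS and Tlr13 was lower. RefSeq (build GRCm38.p6) gave 10 windows for 8 of the 10 members, and Tlr4 and Tlr7 had none. Each window is the 250 bases before a transcript start. Motifs searched on both strands were GGG with CC after any 5 bases, a form bound by NF-kB, GAAA with GAAA after any 2 bases, a form bound by interferon regulatory factors, TGANTCA, bound by AP-1 proteins, and GAGGAA, bound by PU.1. Of 32851 promoter windows of the same length they were found in 45.8%, 2.98%, 6.75% and 23.3%. The first is thus common and its presence singles out no gene. Tlr2 held 2 overlapping matches of it in a run of 11 bases 173 to 163 bases before the start. Tlr3 held 2, at 211 to 202 and 23 to 14 bases before the start, and Tlr5 and 1 of 2 windows of Tlr6 held 1 each. Neither window of Tlr1 held it, nor did that of Tlr13. The interferon-type motif was found in the other window of Tlr6 alone, in 2 overlapping matches 116 to 101 bases before the start. TGANTCA was found in Tlr9, and GAGGAA in Tlr1, Tlr8, Tlr9 and Tlr13. A window of each of the 4 receptors past 2-fold (for Tlr1 the upstream of its 2), and that of Tlr6 with its interferon-type matches, are given 5′ to 3′ along the gene, with capitals for matches of the NF-kB and interferon types.
Tlr2, chr3:83841609-83841858, minus strand: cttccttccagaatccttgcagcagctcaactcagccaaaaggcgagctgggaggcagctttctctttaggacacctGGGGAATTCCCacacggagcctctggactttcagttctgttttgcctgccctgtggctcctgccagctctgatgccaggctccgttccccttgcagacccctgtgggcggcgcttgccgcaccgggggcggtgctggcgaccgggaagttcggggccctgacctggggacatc
Tlr3, chr8:45410381-45410630, minus strand: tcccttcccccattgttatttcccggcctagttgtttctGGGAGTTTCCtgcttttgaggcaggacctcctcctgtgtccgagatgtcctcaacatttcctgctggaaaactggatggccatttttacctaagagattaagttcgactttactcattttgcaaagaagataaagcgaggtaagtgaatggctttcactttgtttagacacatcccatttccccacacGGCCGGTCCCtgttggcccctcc
Tlr1, chr5:64933559-64933808, minus strand: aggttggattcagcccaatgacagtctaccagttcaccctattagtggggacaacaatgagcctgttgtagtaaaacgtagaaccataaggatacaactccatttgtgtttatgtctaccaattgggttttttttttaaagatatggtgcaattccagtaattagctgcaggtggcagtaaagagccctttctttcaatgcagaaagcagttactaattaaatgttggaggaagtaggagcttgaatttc
Tlr13, chrX:106143025-106143274, plus strand: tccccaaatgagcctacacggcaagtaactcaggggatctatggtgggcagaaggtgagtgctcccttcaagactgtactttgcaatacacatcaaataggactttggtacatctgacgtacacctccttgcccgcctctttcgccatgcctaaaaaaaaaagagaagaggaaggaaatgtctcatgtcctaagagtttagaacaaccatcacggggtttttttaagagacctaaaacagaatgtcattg
Tlr6, chr5:64959167-64959416, minus strand: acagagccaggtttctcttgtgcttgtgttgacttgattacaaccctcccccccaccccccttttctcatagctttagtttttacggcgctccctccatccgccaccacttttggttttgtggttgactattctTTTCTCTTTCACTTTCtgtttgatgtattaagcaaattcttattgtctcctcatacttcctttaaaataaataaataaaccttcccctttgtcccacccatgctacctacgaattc

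A match of letters is a description and not a binding site, and the part of any motif in the levels was not tested.

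Fewer members passed 2-fold between genotypes than with LPS, as was also so over all genes compared. On its brightest probe no member reached 2-fold between genotypes, without or with LPS, where 1.26% of 25924 compared genes were at least 2-fold higher and 1.15% lower without LPS, and 1.15% and 1.09% of 26668 with LPS. At 1.5-fold, Tlr3 was higher and Tlr8 lower without LPS, beside 4.78% and 5.57% of genes, and no brightest probe passed with LPS, beside 3.12% and 4.41%. The distant second probe assigned to Tlr4 stood apart from this, in deficient cells at least 6.49-fold lower without LPS and at least 3.39-fold higher with LPS. It was undetected on an array of each of these comparisons. Without LPS the largest difference of deficient minus wild type was that of Tlr3 (0.82 ± 0.22, 1.77-fold higher), which was 0.34 with normexp. The next was that of Tlr8 (-0.60 ± 0.21 on the brightest probe), which the second probe did not share (0.18 ± 0.21). The brightest probes of the other 8 members lay between -0.11 and 0.25. Tlr7 had no common sign over its probes, at 0.25, -0.18 and -0.37 from the brightest to the dimmest. The difference of Tlr3 without LPS and its LPS difference in wild type both use the wild-type array without LPS, on which it was lowest.

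With LPS, Tlr1 was higher in deficient cells by 0.53 ± 0.20 (1.45-fold), Tlr5 by 0.34 ± 0.22 and Tlr6 by 0.32 ± 0.20. Tlr3 was higher by 0.21 ± 0.21. Tlr2 (-0.25 ± 0.07), Tlr4 (-0.26 ± 0.20), Tlr9 (-0.17 ± 0.20) and Tlr13 (-0.23 ± 0.20) were on the lower side. The error of Tlr2 is smaller because several spots of its probe were averaged. Tlr7 and Tlr8 had no common sign over their probes. The brightest probe of Tlr8 gave -0.18 ± 0.21 and the second 0.71 ± 0.21 (1.63-fold), and those of Tlr7 gave -0.10, 0.04 and 0.19. The median of the members was -0.13 with LPS and 0.01 without it, against 0.00 and -0.06 for all compared genes.

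**Figure D3:**
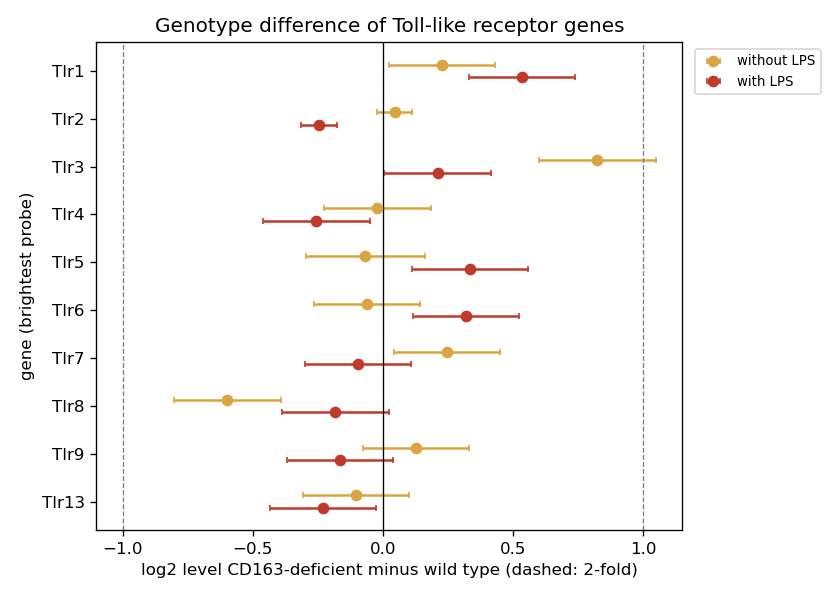
Difference in level of deficient minus wild type (log2) for the brightest probe of each member, without and with LPS. Bars are the scanner's error of the difference and dashed lines mark 2-fold. All 20 points lie inside the dashed lines, and Tlr3 without LPS is the point nearest to them.

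The LPS difference of deficient cells minus that of wild type compares the responses directly. No brightest probe of a member reached 2-fold, where 1.51% of 23908 genes did so upward and 2.29% downward. At 1.5-fold Tlr3 passed downward, beside 6.94% of genes, and none upward, beside 6.53%. Of the brightest probes Tlr3 had the largest value (-0.61 ± 0.30), a smaller LPS difference in deficient cells. It was -0.16 with normexp. Tlr8 (0.42 ± 0.29), Tlr5 (0.40 ± 0.32) and Tlr6 (0.38 ± 0.29) were next, each under 1.5 times its error. The second probe of Tlr8 gave 0.53 ± 0.29, which is 1.81 times its error. The brightest probes of the remaining members lay between -0.34 and 0.31, Tlr2 at -0.29 ± 0.10 and Tlr13 at -0.13 ± 0.29. Tlr7 had no common sign, at -0.34 ± 0.29 on its brightest probe and 0.22 ± 0.29 and 0.55 ± 0.40 on its others. The second probe of Tlr4 was not detected on every array, so its value is not given. The value of Tlr2 is 3.06 times its error, which is small because several spots were averaged.

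Beside the receptors, 61 other genes of the pathway were read, of which 60 were compared. Sarm1, an adaptor that restrains signalling, was not well above background on any array. In wild type 14 of 60 were at least 2-fold higher with LPS and 4 at least 2-fold lower, beside 6.4% and 5.03% of all genes, with a median of 0.16. In deficient cells 11 were higher and 5 lower, beside 7.24% and 5.5%, with a median of 0.08. In both genotypes 11 of these genes passed 2-fold upward and 4 downward. The share of all genes that passed in both genotypes is not given here.

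Among co-receptors Cd14, which hands LPS to the TLR4 complex, was higher with LPS by 2.07 in wild type and 2.01 in deficient cells. Cd36, a co-receptor of TLR2 with TLR6, was lower (-1.17 and -1.40). Ly96, the part of the TLR4 complex that holds LPS, was at -0.60 and 0.07. Among genes for folding, transport and cleavage, Hsp90b1, a chaperone of Toll-like receptors, was higher (1.40 and 1.17) and Nrros, whose protein binds Toll-like receptors in the endoplasmic reticulum, was lower (-1.11 and -1.08). Unc93b1, which carries the endosomal receptors, was at 0.18 and 0.31. The protease gene Lgmn, of an enzyme that processes endosomal receptors, was at -0.99 and -1.25.

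Of the adaptors Myd88 was higher in both genotypes (1.07 and 1.28), while Ticam1 was at -0.23 and 0.07. Ticam2 (1.44 and 0.77) and the kinase genes Tbk1 (1.53 and 0.67) and Ikbke (1.44 and 0.89) passed 2-fold in wild type alone. Without LPS these 3 genes were higher in deficient cells than in wild type by 0.71, 0.94 and 0.69, and with LPS by 0.04, 0.08 and 0.14. The genotype difference without LPS and the LPS difference in wild type share the untreated wild-type array. Ikbkg, the regulatory subunit of the IkB kinase complex, was at 1.02 and 1.03, and at 1.06 and 0.96 on its other probe. The pathway counts use the brightest probe alone. Irak2 was at 0.14 and 0.68 on that probe, but at 1.26 and 1.18 on its other probe. A dimmer probe also passed 2-fold in 1 genotype for Traf6 (1.06 and 0.45), Nfkb1 (1.17 and 0.71) and Cnpy4 (0.93 and 1.08).

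Of the transcription factors Irf7 (4.64 and 5.04), Irf1 (1.46 and 1.95) and Nfkb2 (1.38 and 1.46) were higher. The other probe of Irf1 gave 0.92 and 1.25, short of 2-fold in wild type. The AP-1 genes Fos (-1.59 and -1.64) and Jun (-1.03 and -1.14) were lower. Of 10 genes for brakes on the signal, Socs1 (4.42 and 4.71), Irak3 (2.45 and 2.05), Nfkbia (1.97 and 2.38) and Tnfaip3 (1.49 and 1.95) were higher and none was 2-fold lower. No pathway gene was 2-fold apart between genotypes in either state. Of all genes compared 1.26% were higher and 1.15% lower without LPS, and 1.15% and 1.09% with LPS. A list of this size would hold few or none at those shares.

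**Figure D4:**
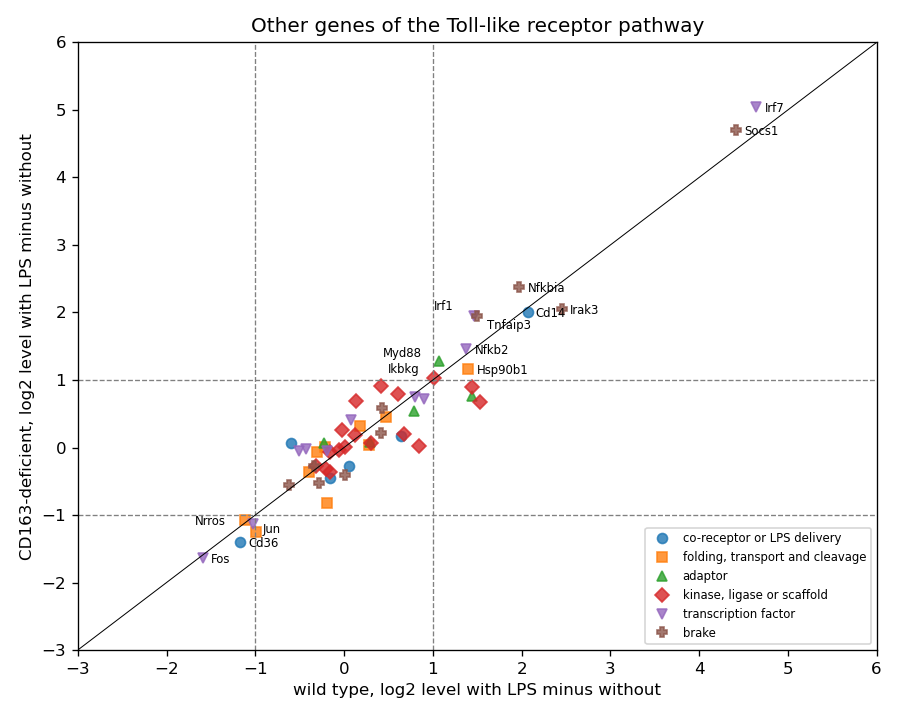
LPS difference (log2, with LPS minus without) in wild type (x axis) and in deficient cells (y axis) for the 59 pathway genes that were well above background on all 4 arrays, by role. Dashed lines mark 2-fold and the solid line marks equal differences. Irf7 and Socs1 lie farthest up and Fos farthest down.

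The genes whose profile over the 4 arrays was nearest to a member were sought for the 4 members with a range of at least 1 (log2). The measure was the root mean square distance between levels centred on their own mean, over 16570 named genes. Nearest to Tlr1 were Mab21l3 (0.02), Cnksr2 (0.03) and Olfr38 (0.05), and nearest to Tlr2 were Boc (0.02), Mettl1 (0.03) and Plpp5 (0.05). Nearest to Tlr3 were Rdh10 (0.04), Ly75 (0.05) and Coa5 (0.06). Nearest to Tlr13 were Itgb3bp (0.01), Serpinb6a (0.02) and Ahnak (0.02). With 4 arrays and this many genes, such small distances describe these arrays alone.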

How the data were processed

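Total RNA was labelled with Cy3 and hybridised to 1-colour Agilent arrays, 4 in all. The authors deposited scanner output in which each spot has an intensity. Per the file headers it was made by Feature Extraction 10.7.1.1 with mm9 probe positions; version 9.5.1.1 stands in the submitters' processing notes. The deposited processed signal is background-subtracted and detrended within an array. The deposited 0 or 1 flags (other values) mark spots well above background, and outlier spots were left out.

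The log2 signal minus the array's 75th percentile over non-control spots gave levels. Spots were averaged per probe, and each gene was represented by its brightest probe. A probe was detected when 50% or more of its spots carried the flag, and a gene was compared when detected on at least 1 array compared. For counts, an undetected side was set to the higher of its own level and the lowest detected level of that array. Genes were counted at 2-fold, with no p-value. Probes were named through RefSeq accessions (26761), current symbols (3814) or older symbols (639), and 8215 kept the file's name. Members, lists and tests were chosen with earlier results of these data known. Named pathway genes are those at least 2-fold apart with LPS in both genotypes or between genotypes. Ly96, Unc93b1, Lgmn, Ticam1, Ticam2, Tbk1, Ikbke, Irak2, Traf6, Nfkb1 and Cnpy4 were added after their values were seen. Alternatives were normexp (limma 3.58.1, offset 50), quantile normalization, median scaling, the mean of all probes, the deposited value table, 3 other filters and a 1.5-fold call. 1 listed cell type marker is not reported here and was left out of its list. The counting step was tested on simulated data. Python 3.11.15, pandas 2.3.3, numpy 2.4.6, matplotlib 3.10.9 and R 4.3.3 were used. The number of arrays limits the precision.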

Additional observations from a re-analysis of the deposited data

Results flagged for a closer look

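The LPS differences of 3 members pointed in opposite directions in the genotypes, on 1 array a group, and this difference was not tested. For Tlr5 the difference was -0.07 in wild type but 0.33 in the deficient cells, which are 0.40 apart. For Tlr8 it was -0.27 and 0.15, which are 0.42 apart. For Tlr9 it was 0.16 and -0.13, so that the deficient value was lower by -0.29. These values are of the brightest probe, and each of these gaps is under 1.5 times its scanner error. On the second probe of Tlr8 the differences were -0.45 and 0.08. Their gap of 0.53 is 1.81 times its error.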

How the results depend on the processing

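No paired analysis was possible because each group holds 1 array. The calls of Tlr1 and Tlr13 with LPS kept their direction and 2-fold size in both genotypes under normexp, quantile normalization, median scaling, the deposited value table and the mean of all probes. Over the 10 members, 5 comparisons and these 5 settings, 227 of 250 values moved by less than the scanner's error and 23 by more. The deposited value table lay close to quantile normalization, with a median absolute distance of 0.017 (log2), so these 2 settings are not separate checks. The 227 include the members with 1 probe under the mean of all probes, whose values could not move. With the mean of all probes Tlr4, whose second probe was undetected on 2 arrays, added a call in each comparison. With LPS in wild type 2 members were then lower, beside 1265 of 26681 genes. In CD163-deficient cells 4 rather than 3 were higher with LPS (Tlr4 at 1.75 in place of -0.29), beside 1926 of 26149. Between genotypes 1 was lower without LPS, beside 358 of 25924, and 1 higher with LPS, beside 359 of 26668. In the difference of LPS responses 1 was higher, beside 398 of 23908. With a 1.5-fold call 1 member was higher and 1 lower between genotypes without LPS, beside 4.78% and 5.57% of all genes. In the difference of responses 1 member was lower, beside 6.94%. For the pathway list that call gave 21 higher and 7 lower with LPS in wild type, beside 13.7% and 12.8% of all genes, and 20 higher and 6 lower in CD163-deficient cells, beside 15.4% and 12.1%. Between genotypes it gave 6 higher and 1 lower without LPS, beside 4.78% and 5.57%, and 1 and 1 with LPS, beside 3.12% and 4.41%. In the difference of responses it gave 1 higher and 4 lower, beside 6.53% and 6.94%. The pathway gene Rel was not well above background in wild type without LPS. With no detection filter it made 1 pathway gene higher between genotypes without LPS, beside 887 of 30165 genes. It also made 1 lower in the difference of responses, beside 1821 of 30162. With the mean of all probes it made 1 higher between genotypes without LPS, beside 518 of 25924. Over all genes normexp moved the median LPS difference in wild type from 0.00 to -0.13 and that of the difference of responses from 0.08 to 0.19. It moved the higher share of all 2-fold calls from 52.2% to 31.8% between genotypes without LPS, from 51.4% to 72.7% with LPS and from 39.7% to 62.4% in the difference of responses. The dim probe of Tlr3 moved with normexp, its LPS difference in wild type from 1.79 to 1.06.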

Other observations

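The arrays also carry 1 probe each for Tlr11 and Tlr12, which are outside the 10 members and were looked at after the other values were seen. Tlr12, an endosomal receptor for profilin of protozoa, had wild-type levels of -5.20 without LPS and -4.11 with it, and levels in CD163-deficient cells of -4.51 and -2.81. The probe was dim but detected on each of the 4 arrays. With LPS it was higher by 1.09 ± 0.31 (scanner error) in wild type and by 1.70 ± 0.23 in deficient cells. The treated deficient cells stood above treated wild type by 1.30 ± 0.22 (2.46-fold), beyond the brightest probe of any member in that comparison. Tlr11, its close relative, was well above background in wild type with LPS alone, at -6.19, so no fold is given.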
